A study of Mus musculus with 12 samples.

Results

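Genes of the macrophages and neutrophils of the liver were followed in whole-liver RNA of 12 mice. The 38 genes were a list of symbols, and each had 1 probe set among the 15780 genes that the array annotation names. They comprise 13 genes of Kupffer cells and other macrophages, 19 genes shared by most myeloid cells, 4 genes of MHC class II antigen presentation and 2 genes abundant in neutrophils. All control mice carried loxP-flanked alleles of c-Met, the receptor of hepatocyte growth factor (HGF), written c-MetloxP/loxP. In knockout mice, written c-MetDhepa, such alleles had been combined with a Cre transgene, either Alfp-Cre, driven by regulatory elements of the albumin and alpha-fetoprotein genes and active before birth, or Alb-Cre, driven by the albumin promoter and active only after birth. The labels do not say which transgene a given mouse carried, nor the age or sex of the mice. Livers were taken without stimulation or 2 h after 2 µg recombinant mouse HGF was given into the peritoneal cavity, with 3 mice, each on 1 array, in each of the 4 groups. The protocol also names sodium chloride injections without saying which mice received them, so HGF cannot be told apart from injection and handling if the unstimulated mice were not injected. Both promoters act in cells of the hepatocyte lineage, so the myeloid cells of the knockout mice are not the intended target of Cre.

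Kupffer cells are the resident macrophages of the liver sinusoids, where they clear particles, complement-coated microbes and ageing red cells from the blood through scavenger and complement receptors. Neutrophils circulate and enter inflamed liver quickly, drawn by chemokines and held by adhesion molecules on endothelial cells. MHC class II molecules present peptides from engulfed material to T cells, and macrophages, dendritic cells and B cells carry them. In whole tissue, fewer cells of a type and less RNA per cell cannot be told apart.

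Promoter sequence is shown for 6 members, chosen after their values were seen from those with the clearest differences between the control groups, so that genes that were high and low after HGF can be read side by side. Each is the 250 bases before the start of the gene, 5′ to 3′ on the gene's strand, from RefSeq on GRCm38.p6, and 27 of the 38 members were found in that table. Capitals mark matches on either strand to 4 short motifs. They are GAGGAA, the core bound by the myeloid factor PU.1, the CCAAT box, the TATA box in the form TATAAA, and TTGCNNAA, a form bound by C/EBP factors. S100a8, S100a9 and Marco were higher with HGF in control livers.
S100a8, chr3:90668821-90669070, plus strand: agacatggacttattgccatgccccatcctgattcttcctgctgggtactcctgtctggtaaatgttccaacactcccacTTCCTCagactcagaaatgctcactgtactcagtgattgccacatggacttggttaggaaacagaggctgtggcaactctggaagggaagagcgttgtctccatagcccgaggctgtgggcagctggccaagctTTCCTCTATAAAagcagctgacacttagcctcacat
S100a9, chr3:90695722-90695971, minus strand: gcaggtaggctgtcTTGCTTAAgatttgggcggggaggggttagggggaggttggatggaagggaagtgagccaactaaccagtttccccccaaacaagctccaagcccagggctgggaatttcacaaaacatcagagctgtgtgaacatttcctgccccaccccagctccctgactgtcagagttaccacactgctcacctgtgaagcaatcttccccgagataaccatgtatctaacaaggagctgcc
Marco, chr1:120505025-120505274, minus strand: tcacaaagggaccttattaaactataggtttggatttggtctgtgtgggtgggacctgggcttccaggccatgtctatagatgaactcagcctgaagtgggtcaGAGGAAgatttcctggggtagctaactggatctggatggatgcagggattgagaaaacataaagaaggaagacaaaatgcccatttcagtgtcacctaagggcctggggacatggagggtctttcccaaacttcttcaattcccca
Vsig4, H2-Aa and H2-Eb1 were lower with HGF in control livers.
Vsig4, chrX:96293439-96293688, minus strand: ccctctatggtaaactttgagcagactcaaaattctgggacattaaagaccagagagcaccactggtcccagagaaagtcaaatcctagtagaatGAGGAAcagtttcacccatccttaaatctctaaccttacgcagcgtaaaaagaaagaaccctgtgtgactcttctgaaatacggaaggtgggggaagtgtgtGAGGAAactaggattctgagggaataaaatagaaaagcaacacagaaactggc
H2-Aa, chr17:34287824-34288073, minus strand: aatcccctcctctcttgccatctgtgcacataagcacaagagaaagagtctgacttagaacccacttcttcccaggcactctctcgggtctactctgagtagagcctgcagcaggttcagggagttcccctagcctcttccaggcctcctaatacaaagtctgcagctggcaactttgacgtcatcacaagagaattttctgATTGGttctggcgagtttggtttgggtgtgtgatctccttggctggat
H2-Eb1, chr17:34305617-34305866, plus strand: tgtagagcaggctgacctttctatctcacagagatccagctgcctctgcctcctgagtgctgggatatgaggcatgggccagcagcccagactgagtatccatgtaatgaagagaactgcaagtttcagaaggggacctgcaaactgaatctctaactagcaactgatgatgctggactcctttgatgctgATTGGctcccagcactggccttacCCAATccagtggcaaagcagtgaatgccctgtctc
GAGGAA stood in 16 of 31 member windows (51.6%), against 23.3% of all 32851 windows of that length in the table. It was found in the windows of S100a8 and Marco as well as in that of Vsig4, so it was not limited to genes of one direction. In S100a8 it lay on the opposite strand 170 and 36 bases before the start, the latter directly beside a TATAAA 30 bases before the start. CCAAT stood in 10 of 31 member windows (32.3%), against 33.8% of all windows. Both class II windows held it, H2-Aa on the opposite strand 48 bases before the start and H2-Eb1 at 59 and 35 bases. TTGCNNAA, which starts 236 bases before S100a9, stood in 12.9% of member windows and 9.6% of all windows, and TATAAA in 12.9% and 12.4%. These are matches of letters only. The members without a window were Csf1r, C1qa, Adgre1, Msr1, Tyrobp, Itgb2, Ncf4, Spi1, Cd74, H2-Ab1 and Cd52.

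Pairs of arrays correlated at r = 0.914 to 0.992 across the 6683 tested probe sets. Met itself read 6.59 to 7.02 (log2 intensity, as below) on the control arrays and 6.29 to 7.40 on the knockout arrays; the sources used here do not say where its probes lie relative to the deleted part, so this does not check the genotype. An index over the 6648 tested probe sets outside the list, with 0 as the mean of control arrays without HGF and 1 as that of control arrays with HGF, placed knockout replicates 1, 2 and 3 at 0.12, 0.98 and 0.04 under the label without HGF. Under the label with HGF the values were 0.32, 0.02 and 0.94. The 2 knockout arrays numbered replicate 2 thus went against their labels on this index, and subset medians and counts that they change are given with and without them. Controls hold array numbers 1 to 6 and knockouts 7 to 12, so genotype cannot be told apart from array order. Probe sets of albumin and other hepatocyte genes summed to 139607 to 151599 intensity units on every array. Values below are log2(intensity + 1) for each array in the order of replicates 1, 2 and 3, and a difference is on that scale. A probe set was tested where it reached 4 on at least 3 arrays. A gene below 4 without HGF could thus be tested only through arrays where it was higher. That filter kept 35 of the 38 members. The other 3 stayed near background on every array, namely the IgG receptor gene Fcgr1 (2.76 to 3.63), the integrin gene Itgam (1.96 to 2.42) and Spi1, which encodes PU.1 (2.81 to 3.51).

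After HGF, the subsets of the list differed in direction in control livers. The neutrophil genes S100a8 and S100a9 were higher, as were the scavenger receptor gene Marco and the oxidase genes Cybb and Ncf4. The MHC class II genes and Vsig4 were lower. Most other Kupffer cell genes had negative differences too, with overlap, down to -0.52 for Cd5l, while Msr1 differed by 0.59. The median difference was 5.11 for the neutrophil subset, 0.38 for the general myeloid subset, -0.20 for the Kupffer cell subset and -0.81 for the class II subset, against -0.09 over all tested probe sets. A positive difference was found for 2 of 2, 13 of 16, 3 of 13 and 0 of 4 members in that order, and for 35.6% of all tested probe sets. In a fit of all 4 groups with limma, 0 of 35 members were called at an adjusted p under 0.05, where 0.404% of all tested probe sets were called. At an unadjusted p under 0.05 there were 6 members higher and 5 lower, against backgrounds of 8.95% and 10.6%. When the fit held only the control groups, 7 of 35 members were called against a background of 12%, 5 higher and 2 lower against 6.79% and 5.19%. The groups did not overlap for 10 members that were higher, where 14.1% of tested probe sets did the same, and for 2 that were lower, against 23.7%. Lower members without overlap were thus rarer than among all probe sets, and the 2 called lower in the control groups alone stood near their background. The fit of all groups takes its spread from the knockout arrays as well, and the SD of S100a8 and S100a9 was 2.95 and 3.18 in knockout livers without HGF against 1.01 and 0.70 in control livers without HGF.

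S100a8 and S100a9 encode the subunits of calprotectin, a calcium-binding protein that fills the cytoplasm of neutrophils and is also made by monocytes. S100a8 read 5.51, 4.48 and 3.49 in control livers without HGF and 9.07, 10.08 and 8.20 with it. Every control array with HGF lay above every control array without it. The difference was 4.62 (SE 1.61, 24.7-fold, limma adjusted p = 0.159), and 4.62 (SE 0.62, limma adjusted p = 0.00546) in the fit of the control groups alone. S100a9 read 4.70, 4.25 and 3.33 without HGF and 9.51, 10.74 and 8.84 with it, again with no overlap. Its difference was 5.60 (SE 1.70, 48.6-fold, limma adjusted p = 0.127), with SE 0.54 and an adjusted p of 0.00151 in the control groups alone. These genes were called in that fit whichever of the 6 control arrays was left out. Replicate 2 was the highest of the control arrays with HGF for both genes. Without both knockout replicate 2 arrays these genes, Marco, Cybb, Ncf4 and H2-Eb1 were called in the fit of all groups, 6 of 35 members against 8.16% of tested probe sets.

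Other neutrophil genes were read from a separate list of 33, of which 25 were on the array and 6 passed the filter. Of these 6, 5 were higher on every control array with HGF than on any without, against 14.1% of tested probe sets. In the control groups alone 4 were called higher, against 6.79%. Lcn2, whose protein binds bacterial siderophores and is also made by hepatocytes, differed by 5.46. Fpr2, a receptor for formyl peptides, differed by 3.94, the cytokine gene Il1b by 3.65 and the collagenase gene Mmp8 by 2.16. Il1b, Mmp8 and Chil3, another gene of the list, read below 4 on every control array without HGF. These genes passed the filter only through arrays where they were higher, so the counts of 5 and 4 are not independent of it. The granule genes Mpo (1.80 to 2.27) and Elane (2.14 to 2.43) stayed near background on all arrays. The chemokine receptor gene Cxcr2 read 3.09 to 4.12 on control arrays without HGF and 3.59 to 4.27 with it, and Csf3r 2.59 to 2.84 and 3.35 to 4.12. The summed intensity of the list was 145 to 865 in control livers without HGF and 3959 to 7250 with it, most of it from Lcn2. The other 24 genes summed to 129 to 147 without HGF and 501 to 881 with it. A further list of 13 chemokine, cytokine, growth factor and adhesion genes had 7 tested members. In the control groups alone all 7 were called higher, against 6.79% of tested probe sets. Among them Cxcl2 differed by 7.73, Icam1 by 6.60 and Cxcl1 by 6.05. Cxcl2, Ccl2, Csf1 and Sele read below 4 on every control array without HGF. They passed the filter only through arrays where they were higher, so the count of 7 is not independent of the filter. What part neutrophil number had in the values of S100a8 and S100a9 was not tested.

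**Figure D1:**
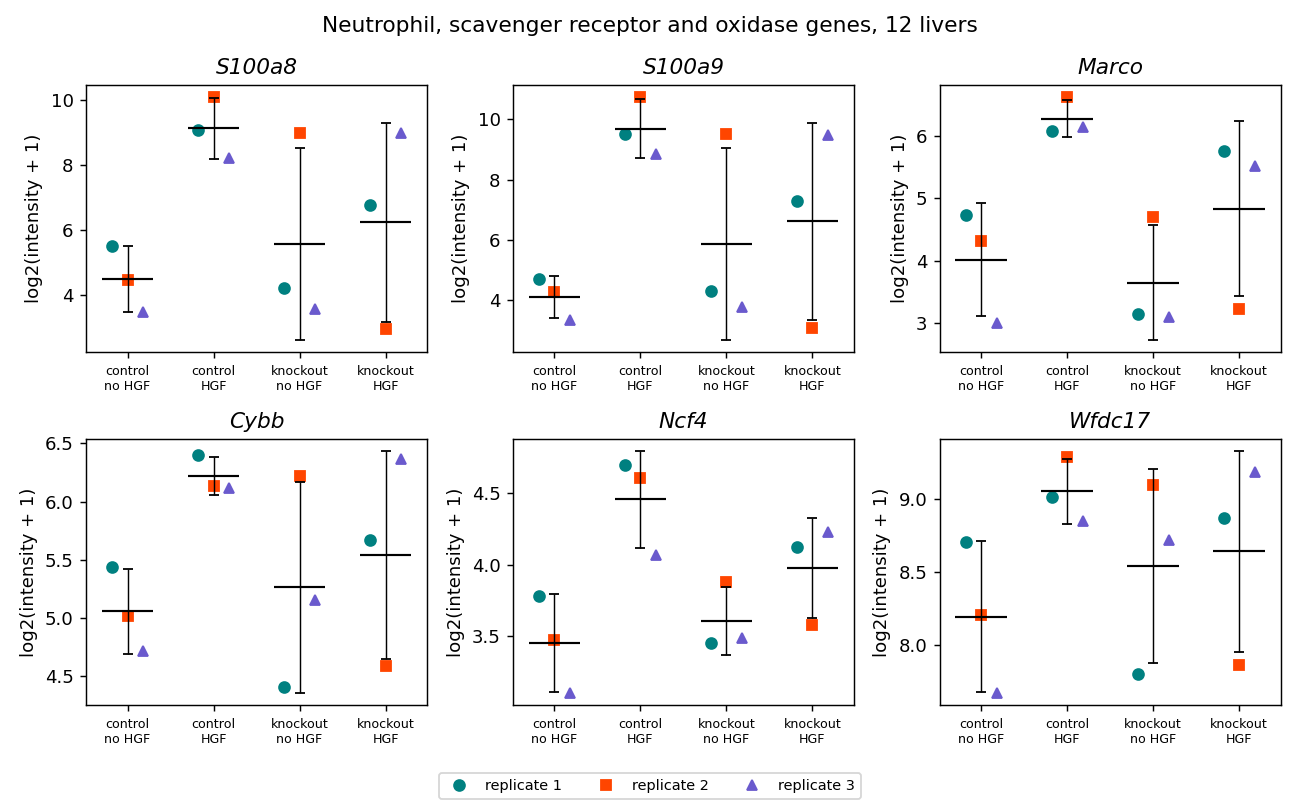
Log2(intensity + 1) of 6 members on each of 12 arrays, by group on the horizontal axis and replicate by symbol. Lines are group means and bars are SDs of 3 arrays. Values of S100a8 and S100a9 were 8.20 or more on all control arrays with HGF and on knockout replicate 2 without HGF and knockout replicate 3 with HGF.

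Marco encodes a class A scavenger receptor that binds bacteria on macrophages. It read 4.74, 4.31 and 3.01 in control livers without HGF and 6.07, 6.62 and 6.14 with it. The groups did not overlap, and the difference was 2.25 (SE 0.69, 4.77-fold, limma adjusted p = 0.128). The control groups alone gave an adjusted p of 0.0202, and the call was lost without control replicate 2 of either group. Msr1, the gene of a related scavenger receptor, stood between 4.95 and 5.50 without HGF and between 5.58 and 5.99 with it, a difference of 0.59 (SE 0.28, limma adjusted p = 0.274).

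Among general myeloid genes, both subunits of the phagocyte NADPH oxidase on the list were higher with HGF. Cybb, the catalytic subunit, read 5.44, 5.02 and 4.72 without HGF and 6.40, 6.14 and 6.12 with it. Its difference was 1.16 (SE 0.49, limma adjusted p = 0.226), with an adjusted p of 0.0125 in the control groups alone. Ncf4, the cytosolic p40 subunit, read 3.78, 3.47 and 3.10 without HGF and 4.70, 4.61 and 4.07 with it, with no overlap. It stayed below 4, near background, on every array labelled without HGF in both genotypes. It thus passed the filter only through arrays with HGF. Its difference of 1.01 (SE 0.24) had an adjusted p of 0.0915 in the fit of all groups, the smallest of the members, and of 0.0380 in the control groups alone. Leaving out control replicate 2 without HGF ended the call of both genes in that fit, and leaving out any of control replicate 3 without HGF and control replicates 1 and 2 with HGF ended that of Ncf4.

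Wfdc17, which encodes a small secreted protein of activated macrophages, read 8.70, 8.20 and 7.67 without HGF and 9.01, 9.29 and 8.85 with it, a difference of 0.86 (SE 0.41, limma adjusted p = 0.280). The Fc receptor signalling chain Fcer1g, the leukocyte integrin chain Itgb2 and the actin-bundling protein gene Lcp1 also did not overlap, with differences of 0.65, 0.62 and 0.34. Fcer1g was separated only narrowly, with 5.90 as its highest value without HGF and 5.92 as its lowest with it. Ptprc, the CD45 gene of all leukocytes, differed by 0.59 and the actin-binding protein gene Coro1a by 0.62, both with overlap. Lyz2, the lysozyme gene of macrophages and neutrophils, read 9.37, 9.33 and 8.75 without HGF and 9.36, 9.76 and 9.50 with it, so the groups overlapped. Ctss, a lysosomal protease that trims the class II invariant chain, was among the 3 general myeloid genes with a negative difference (-0.33, SE 0.17, limma adjusted p = 0.320), with Tyrobp (-0.05) and Laptm5 (-0.13). Its values were 9.80, 9.81 and 9.36 without HGF and 9.24, 9.43 and 9.33 with it. The remaining general myeloid members Fcgr3 (0.37), Mpeg1 (0.15), Cd52 (0.12) and Aif1 (0.02) overlapped. The subset median of 0.38 was 0.24 without control replicate 3 without HGF.

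Most genes that define Kupffer cells had small negative differences with HGF in control livers. Clec4f, a lectin of mouse Kupffer cells, read 9.28, 9.02 and 8.80 without HGF and 8.48, 8.87 and 8.79 with it, a difference of -0.32 (SE 0.23, limma adjusted p = 0.480). Cd5l, which encodes a secreted macrophage protein that supports survival, read 10.78, 10.51 and 10.16 without HGF and 9.47, 10.20 and 10.22 with it, a difference of -0.52 (SE 0.31, limma adjusted p = 0.386). Both genes overlapped between the groups. Vsig4 encodes a complement receptor with which Kupffer cells capture opsonised particles. It read 9.56, 9.39 and 9.06 without HGF and 8.51, 8.78 and 8.66 with it, with no overlap, as for 23.7% of tested probe sets. Its difference was -0.68 (SE 0.23, limma adjusted p = 0.154), and the control groups alone gave an adjusted p of 0.0338, a call that held in that fit only when all 6 arrays were used or when control replicate 3 without HGF was left out. The C1q chains C1qa, C1qb and C1qc, with which macrophages start the classical complement pathway, differed by -0.20, -0.16 and -0.27, and the growth factor receptor gene Csf1r by -0.23. Timd4 differed by -0.34, Cd68, a lysosomal membrane protein, by -0.11, Adgre1 by -0.07 and the haemoglobin scavenger receptor gene Cd163 by 0.07, all with overlap. The subset median of -0.20 was -0.06 without control replicate 1 without HGF, -0.37 without control replicate 3 without HGF and -0.09 without control replicate 1 with HGF.

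**Figure D2:**
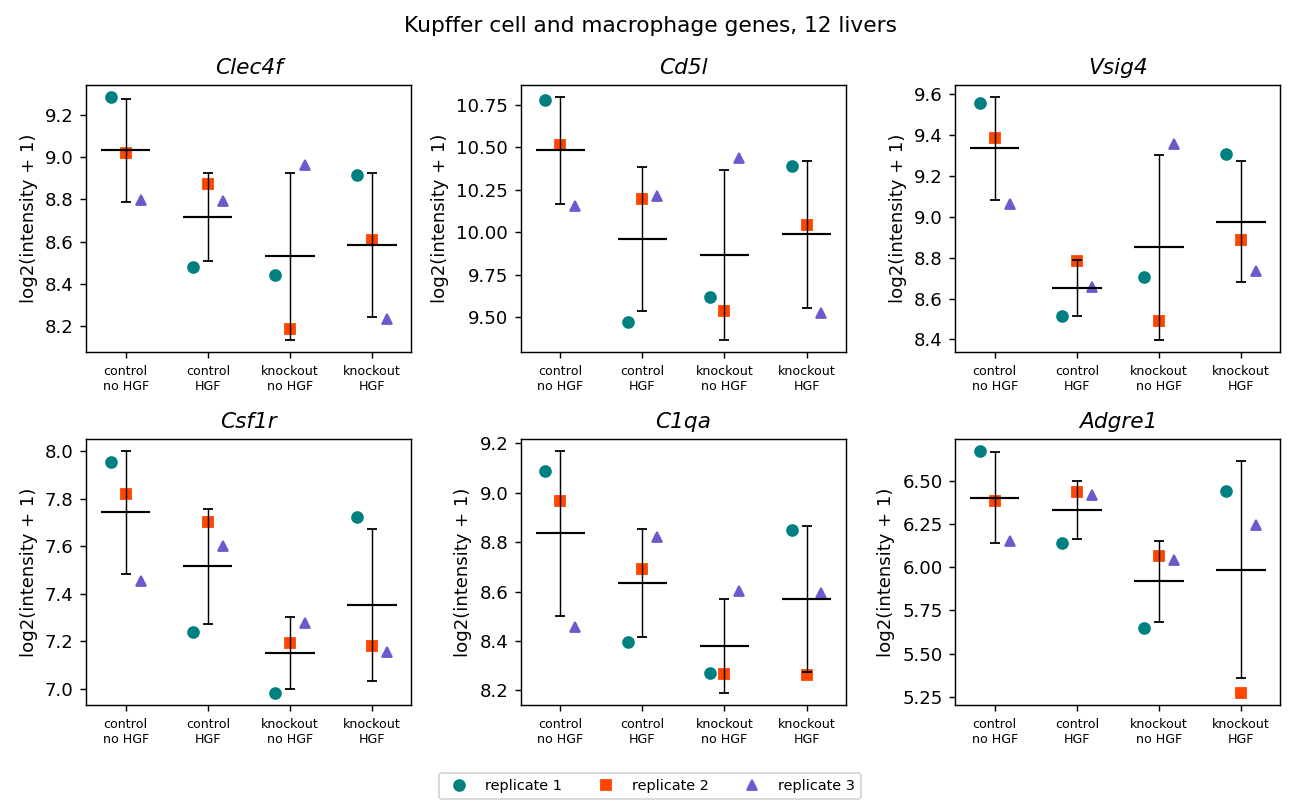
Log2(intensity + 1) of 6 Kupffer cell and macrophage members on each of 12 arrays, by group on the horizontal axis and replicate by symbol. Lines are group means and bars are SDs of 3 arrays. Vsig4 does not overlap between the control groups, while Clec4f and Cd5l do.

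A further 53 macrophage and monocyte genes were listed, of which 44 were on the array and 31 were tested. Their median difference with HGF in control livers was -0.05, and 12 were positive, against 35.6% of all tested probe sets. In the control groups alone 7 were called higher and 5 lower, against 6.79% and 5.19%. The highest were the pattern recognition receptor genes Tlr2 (6.56) and Cd14 (4.76), Spic (4.16), a factor of iron-recycling macrophages, and the haem oxygenase gene Hmox1 (4.02). Tlr2, Cd14, Spic and the further listed genes Plek, Irf8 and Chil3 read below 4 on every control array without HGF. Each passed the filter only through arrays where it was higher, so the count of 7 is not independent of the filter. The iron exporter gene Slc40a1 (-1.04) and the receptor gene Mertk (-0.95), which serves the uptake of dying cells, were the lowest.

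All 4 MHC class II genes were lower with HGF in control livers. Cd74, the invariant chain, read 8.83, 8.97 and 8.38 in control livers without HGF and 8.54, 8.01 and 8.13 with it. H2-Aa, an alpha chain, read 8.87, 9.0 and 8.32 without HGF and 8.41, 7.58 and 7.63 with it. H2-Ab1, its beta chain, read 8.05, 8.07 and 7.61 without HGF and 7.67, 6.89 and 6.91 with it. In these 3 genes the overlap came from replicate 1 with HGF, which lay above replicate 3 without HGF, the lowest of its group. H2-Eb1, the beta chain of the other class II molecule, read 7.92, 8.06 and 7.31 without HGF and 7.13, 6.58 and 6.81 with it, with no overlap. Differences were -0.92 for H2-Eb1 (SE 0.27), -0.86 for H2-Aa (SE 0.27), -0.75 for H2-Ab1 (SE 0.27) and -0.50 for Cd74 (SE 0.22), with limma adjusted p of 0.117 to 0.251. In the control groups alone H2-Eb1 was called with an adjusted p of 0.04998, at the threshold, and that call was lost in 4 of the 6 fits that left out 1 control array. Without control replicate 1 with HGF, H2-Aa and H2-Ab1 were called too.

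Other genes of the class II pathway gave few values. Of 8 listed, 7 were on the array and 2 were tested. H2-DMb1, part of the peptide exchange molecule, differed by 0.21, and Cd83, an activation marker of dendritic cells, by 2.89. The master regulator gene Ciita stayed at 2.05 to 2.40 on all arrays. Among 10 dendritic cell genes 1 of 9 on the array was tested, and their summed intensity was 46.7 to 48.8 in control livers without HGF and 43.3 to 49.0 with it. The B cell genes Ms4a1 (2.47 to 2.86) and Cd79b (2.36 to 3.82) were below the filter. Of 24 T, B and NK cell genes, 19 were on the array and only the chemokine gene Ccl5 (3.62) was tested, and their summed intensity was 84.2 to 95.0 without HGF and 132 to 285 with it. The other 18 genes summed to 74.6 to 85.8 without HGF and 70.8 to 75.2 with it. Genes of sinusoidal endothelial cells shared the direction: 11 of 12 tested members, all but Lyve1 (2.61), had a negative difference, with a median of -0.37, and their summed intensity was 2354 to 2456 without HGF and 1845 to 1929 with it. The part of sinusoidal endothelial cells in the class II values was not tested. Cd83, Ccl5 and Lyve1 read below 4 on every control array without HGF and passed the filter only through arrays where they were higher.

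**Figure D3:**
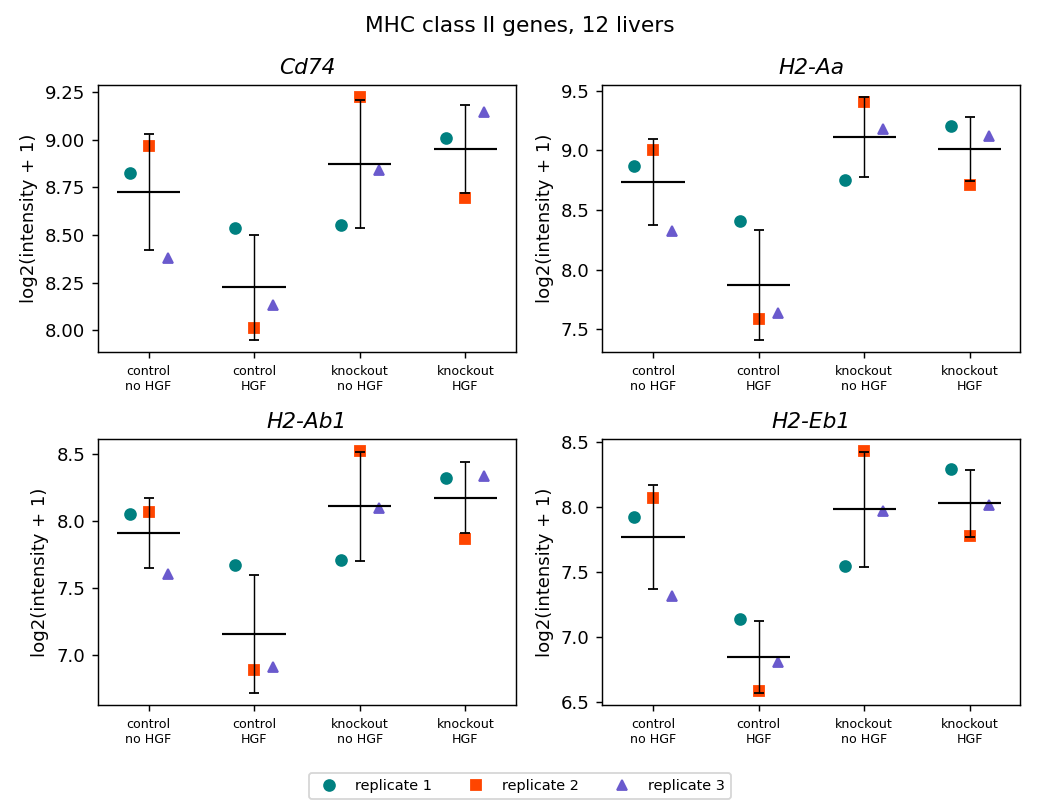
Log2(intensity + 1) of the 4 MHC class II members on each of 12 arrays, by group on the horizontal axis and replicate by symbol. Lines are group means and bars are SDs of 3 arrays. The mean of the control arrays with HGF is the lowest of the 4 groups for each gene, and all knockout arrays with HGF lie above them.

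In knockout livers the groups labelled with and without HGF overlapped for every tested member, against 3.8% of tested probe sets whose groups were separate. S100a8 read 4.21, 8.96 and 3.56 without HGF and 6.77, 2.95 and 8.96 with it. S100a9 read 4.29, 9.51 and 3.74 without HGF and 7.27, 3.06 and 9.49 with it. High and low arrays were thus found under both labels, with replicate 2 low under HGF and high without it. The summed intensity of the other neutrophil genes was 208 to 5466 without HGF and 140 to 6682 with it, and without Lcn2 it was 117 to 519 and 110 to 616. The differences were 0.65 for S100a8 and 0.76 for S100a9 (limma adjusted p = 0.9995 for both). None of the 35 members was called (0 at an adjusted p under 0.05 and 0 at an unadjusted p under 0.05 in limma, against 0% and 1.9% of tested probe sets), and 0 were called with the knockout groups alone. Marco read 3.15, 4.71 and 3.10 without HGF and 5.76, 3.23 and 5.52 with it. Leaving out both replicate 2 arrays left 2 arrays in each knockout group, and 3 members were then called higher against a background of 2.12%. They were Marco (2.51, SE 0.47, limma adjusted p = 0.0259), S100a8 (3.98, SE 0.86, adjusted p = 0.0421) and S100a9 (4.36, SE 0.80, adjusted p = 0.0244). These arrays were left out because they stood against their labels, so these calls are not independent of that choice. The median of the class II subset was 0.06 with all arrays and 0.39 without those 2.

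On the knockout arrays the class II genes were not low where the neutrophil genes were high. H2-Aa read 8.75, 9.41 and 9.18 without HGF and 9.21, 8.71 and 9.12 with it. Knockout replicate 2 without HGF and knockout replicate 3 with HGF both read 8.96 for S100a8, within the range of the HGF-treated controls. Their H2-Aa values lay above every control array, as did those of knockout replicate 3 without HGF and replicate 1 with HGF. For H2-Eb1, knockout replicate 3 with HGF (8.01) lay just below control replicate 2 without HGF (8.06).

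Comparing genotypes without HGF, all 13 Kupffer cell members had a negative difference between knockout and control, with a median of -0.48. Over all tested probe sets the median was -0.03, and 45.1% had a positive difference. Within the untreated controls alone, the subset's median deviation from each gene's mean over all arrays ran from 0.51 to -0.15. The members are thus not independent of each other. Differences ran from -0.67 for Timd4, a receptor for dying cells, to -0.04 for Msr1. In limma 0 of 35 members were called, against 0.0599% of probe sets, and 3 were lower at an unadjusted p under 0.05 against 6.72%. With only the groups compared, 0 were called (0.0748% of probe sets). Csf1r read 7.96, 7.82 and 7.46 in controls and 6.98, 7.19 and 7.28 in knockouts, a difference of -0.59 (SE 0.20, limma adjusted p = 0.292). Adgre1, the F4/80 antigen, read 6.67, 6.38 and 6.15 in controls and 5.65, 6.07 and 6.04 in knockouts, a difference of -0.48 (SE 0.28, limma adjusted p = 0.593). Ctss, with 8.92, 9.28 and 9.28 in knockouts, differed by -0.50 (SE 0.17, limma adjusted p = 0.316). These 3 members had separate groups, against 12.1% of probe sets that were lower without overlap. Other Kupffer cell genes overlapped: Clec4f read 8.44, 8.19 and 8.96 in knockouts and Cd5l 9.62, 9.54 and 10.44, with replicate 3 inside the control range. Without both knockout replicate 2 arrays the subset median was -0.40, with 12 of 13 negative. The general myeloid median was -0.02 with all arrays and -0.22 without those 2, and the class II median 0.21 and -0.01.

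Comparing genotypes with HGF, the class II genes were higher in knockout than in control livers. The same control arrays with HGF gave the lower class II values described above, so the results are not independent. Cd74 read 9.01, 8.70 and 9.15 in knockouts, a difference of 0.73 (SE 0.22). H2-Aa differed by 1.14 (SE 0.27), H2-Ab1, with 8.32, 7.87 and 8.34 in knockouts, by 1.02 (SE 0.27), and H2-Eb1, with 8.29, 7.77 and 8.01, by 1.18 (SE 0.27). No knockout array overlapped the controls for any of the 4, against 8.81% of probe sets that were higher without overlap. Their adjusted p in limma was 0.381 to 0.484, so none passed the test, and in this contrast 0 of 35 members and 0.015% of probe sets were called. Each of the 4 had an unadjusted p under 0.05, against 5.3% of probe sets, and with only the groups compared 0 were called. The subset median was 1.08, and 1.23 without both knockout replicate 2 arrays, against 0.04 over all probe sets. Sinusoidal endothelial genes had positive differences in 11 of 12 tested members, with a median of 0.43, and their part in the result was not tested. In the other direction, 2 of 35 members, Marco (-1.44) and Ptprc (-0.62), were lower in knockouts without overlap. That share was close to the 6.08% of all tested probe sets. The differences of Marco and Ptprc were -0.64 and -0.31 without both knockout replicate 2 arrays. S100a8 and S100a9 differed by -2.89 and -3.09 (limma adjusted p = 0.572 and 0.569), and their median was -2.99 with all arrays and -1.28 without the replicate 2 arrays. Ptprc read 7.12, 7.53 and 7.30 in controls with HGF and 6.97, 6.07 and 7.05 in knockouts with HGF.

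The effect of genotype on the HGF response, tested as the interaction, called 0 of 35 members and 0% of probe sets in limma, with 2 members higher at an unadjusted p under 0.05 against 5.79% of probe sets. The 4 class II members had interactions of 0.58 to 0.97, with limma adjusted p of 0.415 to 0.547. S100a8 had -3.97 (SE 2.27, limma adjusted p = 0.573) and S100a9 -4.85 (SE 2.41, limma adjusted p = 0.501), and the subset median of -4.41 was -0.94 without both knockout replicate 2 arrays. Vsig4 had 0.81 (limma adjusted p = 0.432). Averaged over both conditions, 0 members were called for genotype, against 0.015% of probe sets. The 4 class II members then had differences of 0.44 to 0.76, with limma adjusted p of 0.230 to 0.393. Of the Kupffer cell members 12 of 13 were negative and of the general myeloid members 16 of 16. Over all tested probe sets 50.2% were positive. Without both knockout replicate 2 arrays 10 of 13 and 13 of 16 were negative.

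**Figure D4:**
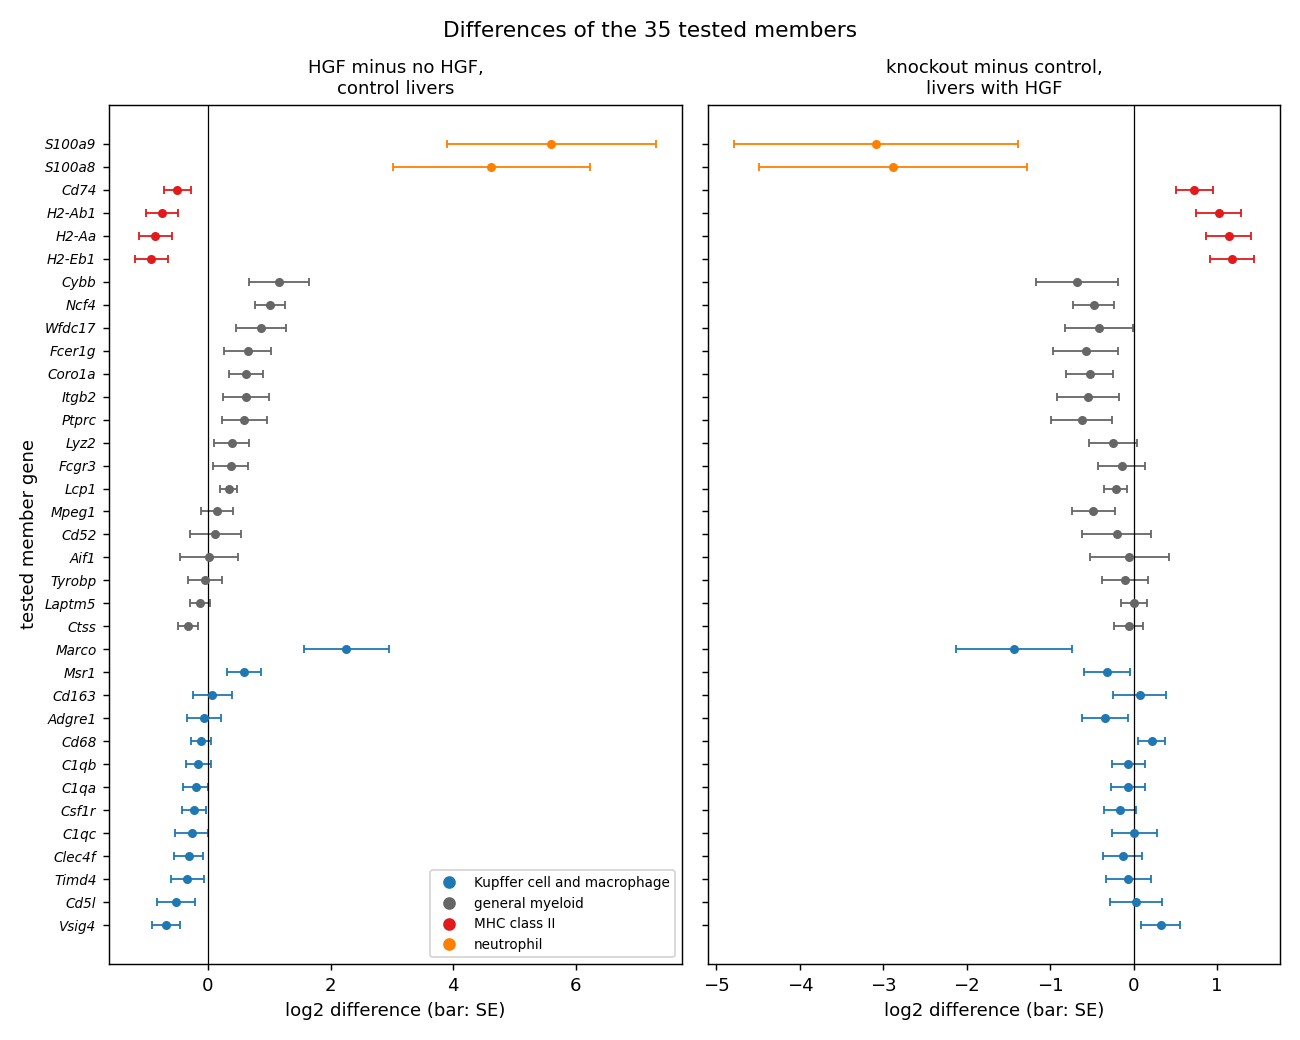
Log2 differences of the 35 tested members, one per line and coloured by subset, for HGF in control livers (left panel) and for knockout against control with HGF (right panel), with bars of 1 SE from the limma fit of all groups. In the left panel S100a8 (4.62) and S100a9 (5.60) lie above 0 and the 4 class II members (-0.92 to -0.50) below it. In the right panel the sides are exchanged. The same control arrays with HGF enter both panels with opposite sign, so the panels are not independent.

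Much of the spread of the members within a group was shared between them. Control replicate 3 without HGF was the lowest of its group for 35 of 35 tested members, where it was the lowest for 29.8% of all tested probe sets. Control replicate 1 without HGF was the highest for 27 of 35, against 32.2% of probe sets. Knockout replicate 1 without HGF was the lowest for 24 of 35, against 22.3%, and knockout replicate 2 with HGF for 26 of 35, against 34.0%. Over Kupffer cell and general myeloid members, the median deviation from each gene's mean over all arrays was 0.37, 0.07 and -0.28 in control livers without HGF and -0.02, 0.29 and 0.19 with it. The distance between 0.37 and -0.28 within the untreated controls was wider than the median difference with HGF of either subset. The members are not independent of each other, and these counts describe arrays, not conditions.

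**Figure D5:**
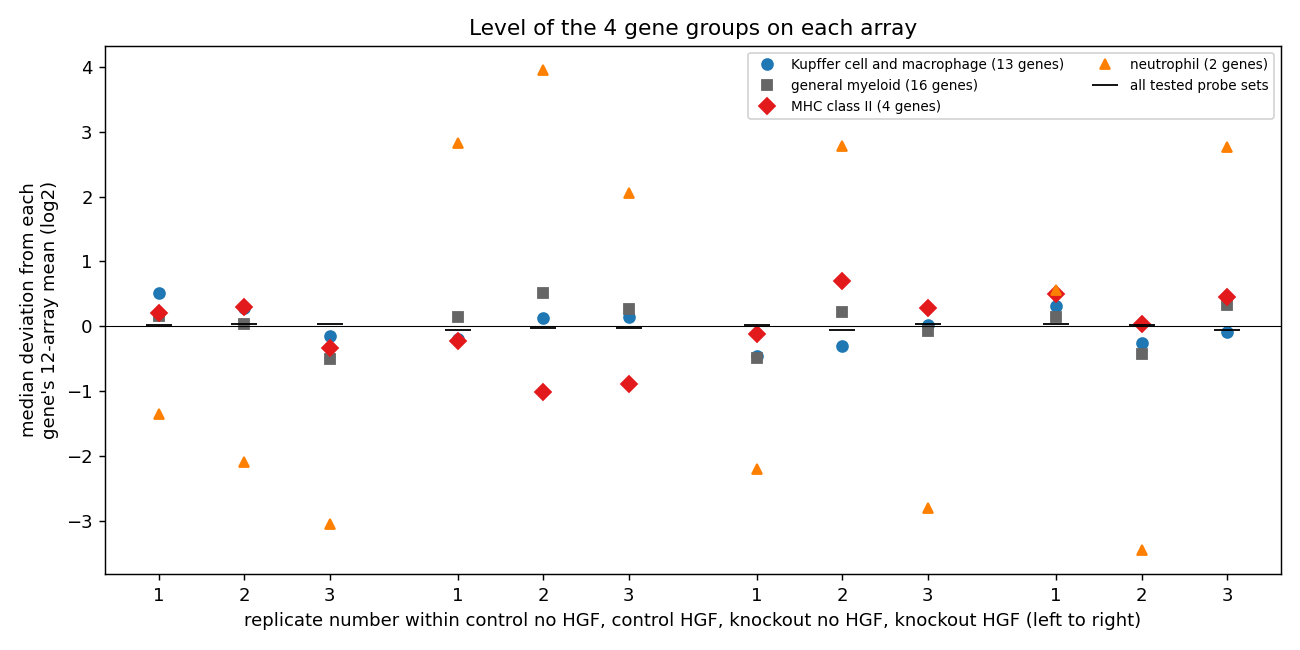
Median deviation of each subset's tested members from their own mean over 12 arrays, in log2(intensity + 1), for each array by group and replicate. Control replicate 3 without HGF lies below the other 2 arrays of its group in each of the 4 subsets. Black dashes are the median over all tested probe sets.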

How the data were processed

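Liver RNA was amplified in one cycle, labelled with biotin and measured on Affymetrix arrays, per the labels' protocols. The deposited table gives linear intensity values per probe set, read as linear from the values themselves. The authors made them with GCRMA, per the submitters' processing notes, whose text here gives no version. GCRMA corrects background by base composition and brings arrays to a common distribution, so fold changes near background are uncertain and a shift shared by most genes would not show. Of 16539 probe sets, 64 were array controls, 15780 had 1 gene symbol in the platform annotation and 695 had none.

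Each intensity was turned into log2(intensity + 1), which understates changes of low genes. Probe sets with a value of at least 4 on at least 3 of 12 arrays were tested (6683). Group means came from limma 3.58.1 (R 4.3.3) with empirical Bayes moderation and 8 residual degrees of freedom, two-sided, and a call was a Benjamini-Hochberg adjusted p under 0.05 over all tested probe sets. The model was tested on simulated data. The median SE of a difference between groups was 0.18, and the number of arrays limits the precision.

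Groups and replicate numbers came from the sample titles. The members, subsets and other lists were chosen with earlier results of these data known. Array values were given for each neutrophil and class II member, for members differing by at least 1 in a comparison and for some of the most abundant others. They were also given for Wfdc17, Csf1r, Adgre1 and Ptprc, whose groups did not overlap in a comparison, and not for every abundant member. Other genes named were called, extreme or commonly used members of their list, or passed the filter only through arrays where they were higher. Alternatives were another pseudocount (16), no filter, a filter at 6, quantile normalization, a replicate block, the compared groups alone, each array left out, and both knockout replicate 2 arrays left out.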

Additional observations from a re-analysis of the deposited data

How the results depend on the processing

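In the fit of all groups, 0 members were called in any comparison, and this held with a pseudocount of 16, with no filter, with a filter at 6, after quantile normalization and with the replicate number as a block. For HGF in control livers it did not hold in a fit of the control groups alone, with 7 members called, nor without both knockout replicate 2 arrays, with 6 called (Marco, Cybb, Ncf4, S100a8 and S100a9 higher and H2-Eb1 lower) against a background of 8.16%. Leaving out 1 array from the fit of all groups gave 0 to 2 members for HGF in control livers, the 2 being Ncf4 and S100a9 without knockout replicate 2 without HGF, and 0 in every other comparison. Leaving out 1 array from the fit of the control groups alone, an alternative chosen after seeing the data, gave 6, 2 and 6 members without control replicates 1, 2 and 3 without HGF and 8, 3 and 5 without those with HGF, where 6.45%, 5.55%, 6.03%, 14.6%, 7.78% and 11% of all tested probe sets were called in that order. Each of those fits had 3 residual degrees of freedom. For HGF in knockout livers, 3 members were called without both replicate 2 arrays. No called value of a member changed sign under any alternative. Fits that leave 2 arrays in a group rest on few arrays, and the cause of the differences between fits was not tested.

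With the replicate block, 0 members were called in each of the 6 comparisons. The deviations of same-numbered arrays correlated at 0.10, 0.18 and 0.05 in controls and at 0.12, -0.83 and -0.70 in knockouts, and not every array correlated best with its own number, so the numbers were not taken to pair the mice.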
